A study of Homo sapiens with 9 samples.

Results

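Chromatin that changed with short enzalutamide exposure, and not in the resistant line, was sought in ATAC-seq peak lists of VCaP prostate cancer cells. Peaks of all 9 libraries on chromosomes 1 to 22 and X were merged wherever they overlapped by at least 1 bp, which gave 94773 regions. A library is said to call a region where 1 of its peaks makes up part of it. Regions called in at least 2 of 3 VCaP_ENZ libraries and in none of the 6 others are termed transient gains, and there were 709 of them. Regions called in no VCaP_ENZ library and in at least 2 of 3 libraries of both other groups are termed transient losses, and there were 747. Together they made up 1456 of the 94773 regions. The calls of all 9 libraries chose these regions, so the calls themselves are given as a description. The word transient names the call pattern and no time course was measured.

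VCaP_ENZ held VCaP cells given 10 µM enzalutamide for 96 h, in 3 libraries. VCaP16 held an enzalutamide-resistant VCaP line grown in 16 µM of the drug, for a time the labels do not state, in 3 libraries. VCaP_DMSO held VCaP cells given the solvent, in 3 libraries. All groups were labelled wild type and grown in the same serum-containing medium. VCaP16 thus differs from VCaP_ENZ in both line and dose, and has no drug-free library, so line and drug cannot be told apart. Nothing in the labels tells whether the replicates came from separate cultures. The p-values given here thus reflect only how much these samples varied, and that variation may be technical.

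Enzalutamide blocks the androgen receptor, a steroid hormone receptor that moves to the nucleus when it binds androgen and then binds DNA, largely at enhancers far from genes. The receptor recruits coactivators and chromatin remodellers there, and pioneer factors such as FOXA1 keep many of these sites accessible. VCaP is a classic cell line for this work because it depends on a highly amplified receptor gene and carries a fusion that puts the ETS factor ERG under androgen control. In ATAC-seq the transposase Tn5 cuts accessible DNA, so that a peak marks a place where chromatin was open to the enzyme in many cells. The deposited lists hold peak positions on hg19 and a score per peak, read here as minus the log10 of the peak's significance (p or q). Without an annotation of that build, every region is named by its position, and none is assigned to a gene. Nor could the labelled cell type be checked by its marker genes.

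The lists held 53646 to 61744 peaks in VCaP_ENZ, 57315 to 68921 in VCaP16 and 53799 to 57677 in VCaP_DMSO. VCaP_ENZ replicate 2, with 61744 peaks, and VCaP16 replicate 3, with 68921, were the longest lists. The lists give no read counts, and sequencing depth is therefore unknown. A missing call means only that no peak passed the caller's limit. Counts are given also with the same number of best-scored peaks, 53646, from every list.

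Of the 3 groups, VCaP_ENZ had the fewest regions called in it alone. Transient gains were 0.748% of all merged regions. The same rule with VCaP16 as the odd group gave 2419 regions (2.55%), and with VCaP_DMSO as the odd group 802 regions (0.846%). Transient losses were 0.788% of all merged regions, against 564 (0.595%) missing in VCaP16 only and 1246 (1.31%) missing in VCaP_DMSO only. With the deposited lists, gains and losses were thus nearly balanced for VCaP_ENZ, with a ratio of 0.949. The ratio of gains to losses was 4.29 for VCaP16 and 0.644 for VCaP_DMSO. With lists of equal length, VCaP_ENZ had the fewest regions in both directions. There were then 801 regions called in VCaP_ENZ only, against 1469 in VCaP16 only and 1159 in VCaP_DMSO only. Regions missing in VCaP_ENZ only numbered 642, against 993 missing in VCaP16 only and 896 missing in VCaP_DMSO only. Only 450 of the 709 transient gains (63.5%) and 498 of the 747 transient losses (66.7%) kept the pattern, so these lists brought in other regions. With these lists gains outnumbered losses in all 3 groups, and the ratio was 1.25 for VCaP_ENZ. Neither the near balance in VCaP_ENZ nor the excess of losses in VCaP_DMSO was thus kept, and the contrast between the groups depended on the lists. Under each other setting that kept all 9 libraries VCaP_ENZ had the fewest gains and VCaP16 the fewest losses. The counts follow from the rule, and no test was applied to them.

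**Figure D1:**
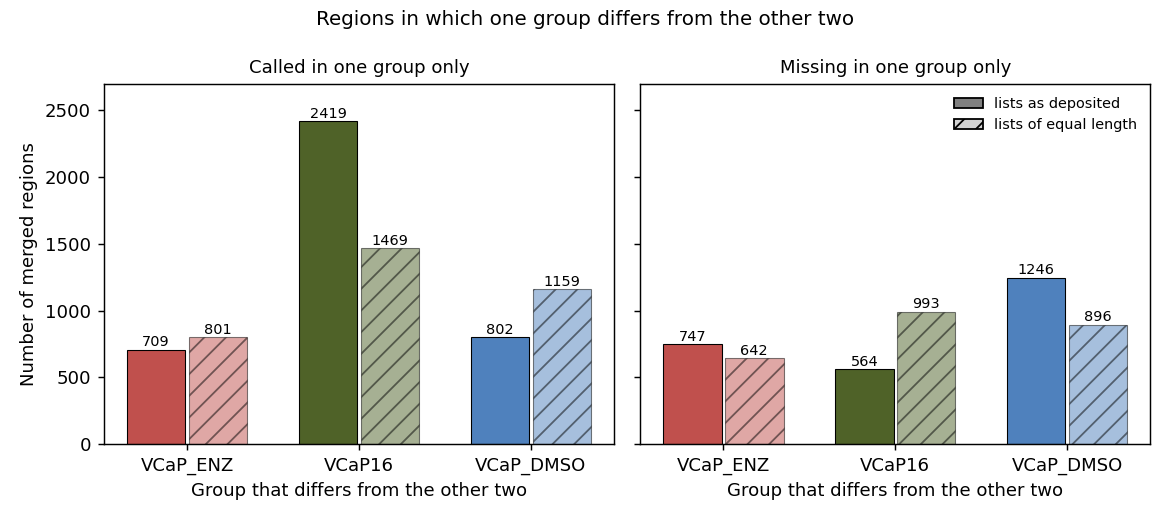
Number of merged regions (vertical axis) in which a group differs from both others, as the only group with calls (left) or without them (right); solid bars use the lists as deposited and hatched bars lists of equal length. VCaP_ENZ has 709 and 747 regions with the deposited lists, and the lowest hatched bar of each panel, 801 and 642, with lists of equal length.

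Most members sat close to the edge of the rule. Of the 709 transient gains, 96 were called in all 3 VCaP_ENZ libraries (0.101% of all regions) and 613 in 2 of them. VCaP_ENZ replicate 2 called 580 of the gains, replicate 1 called 477 and replicate 3 called 457. Among the gains with 2 calls, 252 came from replicates 1 and 2, 232 from replicates 2 and 3 and 129 from replicates 1 and 3, so that the pairs with the longest list of the group held most. Of the 747 losses, 101 (0.107% of all regions) were called in all 6 libraries of VCaP16 and VCaP_DMSO, 292 in 5 of them and 354 in 4. Calls in every library of the groups concerned were met by 520 regions (0.549%) for VCaP16 only and 152 (0.16%) for VCaP_DMSO only, and by 83 (0.0876%) missing in VCaP16 only and 214 (0.226%) missing in VCaP_DMSO only. VCaP16 replicate 3 called 682 of the losses and VCaP16 replicate 1 called 535, while the VCaP_DMSO libraries called 532 to 622. Just outside the rule stood 5686 regions called in 1 VCaP_ENZ library and nowhere else, and 1387 called in at least 2 VCaP_ENZ libraries and in 1 of the 6 others. For losses, 2445 regions met the rule but for 1 VCaP_ENZ call, and 1898 were missing in VCaP_ENZ but reached only 1 of 3 calls in 1 of the other groups.

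The gains can also be read against all regions that VCaP_ENZ called and VCaP_DMSO did not. There were 2746 regions called in at least 2 VCaP_ENZ libraries and in no VCaP_DMSO library. VCaP16 called 560 of these in all 3 libraries, 686 in 2, 791 in 1 and 709 in none, so the transient gains made up 25.8%. In the opposite direction, 2264 regions were called in no VCaP_ENZ library and in at least 2 VCaP_DMSO libraries. VCaP16 called 270 of them in 3 libraries and 477 in 2, which together are the 747 transient losses, and it called 715 in 1 and 802 in none. Both directions use the same VCaP_DMSO libraries. These counts are to be read beside the calls over all 94773 merged regions, of which VCaP16 replicates 1, 2 and 3 called 56547, 56037 and 67752.

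Leaving out 1 library shifts the rule itself, because the group then needs calls in 2 of 2 libraries and can lack them more easily. The number of gains was 325, 224 and 348 without VCaP_ENZ replicates 1, 2 and 3, and 1162 without VCaP16 replicate 3; it ran from 872 to 950 without any other single library. The number of losses was 1265, 2153 and 1271 without VCaP_ENZ replicates 1, 2 and 3. It was 483, 470 and 334 without VCaP16 replicates 1, 2 and 3, and 347, 443 and 406 without VCaP_DMSO replicates 1, 2 and 3. A like-for-like count needs the same number of libraries in every group. Regions were therefore chosen from 2 libraries per group, with calls in 2 of 2 where called and 0 of 2 elsewhere, over all 27 choices of the library held out in each group.

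With 2 libraries per group and the deposited lists, the number of gains had a median of 560 for VCaP_ENZ (351 to 872), 1838 for VCaP16 (1121 to 2318) and 607 for VCaP_DMSO (463 to 985). VCaP_ENZ was below VCaP16 in 27 of 27 choices and below VCaP_DMSO in 14 of 27. The number of losses had a median of 502 for VCaP_ENZ (313 to 925), 359 for VCaP16 (243 to 687) and 881 for VCaP_DMSO (526 to 1163). VCaP_ENZ had the fewest losses in 6 of 27 choices and VCaP16 in 21 of 27. With lists of equal length the ranges of gains no longer met: 578 to 710 for VCaP_ENZ, 1039 to 1239 for VCaP16 and 802 to 917 for VCaP_DMSO. Losses then numbered 381 to 633 for VCaP_ENZ, 624 to 743 for VCaP16 and 531 to 738 for VCaP_DMSO, and VCaP_ENZ had the fewest in 21 of 27 choices. The choices share libraries and are no replicates.

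**Figure D2:**
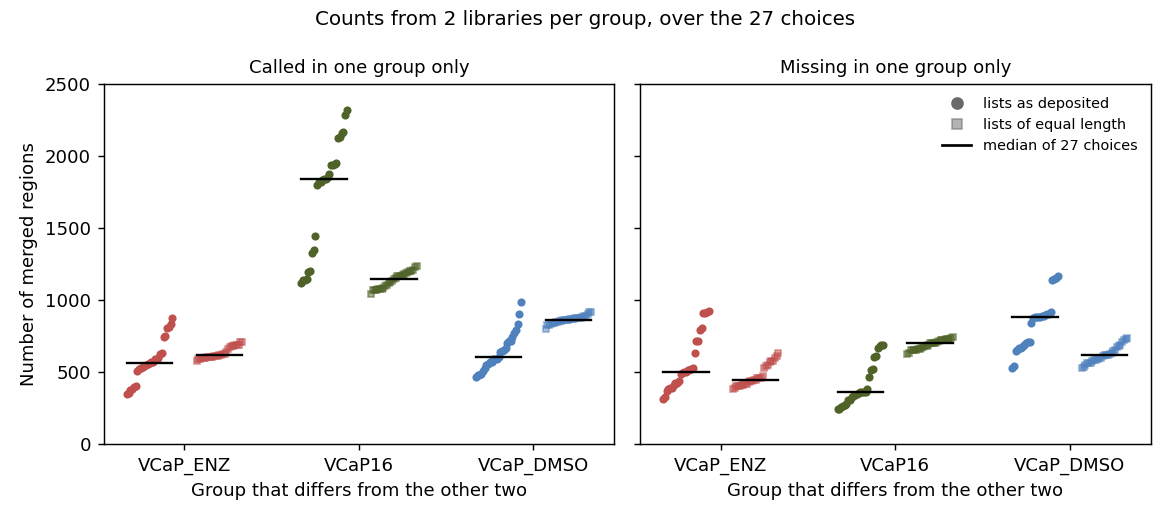
Number of merged regions (vertical axis) when 2 libraries per group are used, 1 point for each of the 27 choices and a line at the median; circles are the deposited lists and squares lists of equal length. With lists of equal length the VCaP_ENZ gains (578 to 710) lie below those of both other groups.

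The library held out of each choice gives calls that the choice did not use. For comparison, of all 94773 merged regions VCaP_ENZ replicates 1, 2 and 3 called 52524, 60447 and 52080. VCaP16 replicates 1, 2 and 3 called 56547, 56037 and 67752, and VCaP_DMSO replicates 1, 2 and 3 called 56406, 53858 and 52346. Regions chosen as gains from 2 VCaP_ENZ libraries were called in 38.1% of cases in the held-out VCaP_ENZ library, in 31.6% in the held-out VCaP16 library and in 27.2% in the held-out VCaP_DMSO library. The VCaP_ENZ share was higher than the VCaP_DMSO share in 27 of 27 choices and higher than the VCaP16 share in 21 of 27. By library, the share was 34.8%, 51.0% and 32.8% in VCaP_ENZ replicates 1, 2 and 3. It was 23.1%, 21.5% and 44.8% in VCaP16 replicates 1, 2 and 3, and 31.6%, 25.5% and 23.9% in VCaP_DMSO replicates 1, 2 and 3. The groups overlap, since VCaP16 replicate 3, the longest list, lay above VCaP_ENZ replicates 1 and 3. They did not overlap with lists of equal length: the shares were 41.6%, 36.5% and 40.8% in VCaP_ENZ, 24.8%, 25.4% and 26.3% in VCaP16, and 30.0%, 30.7% and 29.3% in VCaP_DMSO, and VCaP_ENZ was the highest in 27 of 27 choices.

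The margin of the held-out VCaP_ENZ libraries was thus 8.71 percentage points over the mean of both other groups, and 11.8 with lists of equal length. It was 5.55, 21.4 and 3.52 points with VCaP_ENZ replicates 1, 2 and 3 held out one at a time from the deposited lists. The same margin was 28.5 points for regions called in VCaP16 only, where the held-out VCaP16 library called 48.3% and the held-out VCaP_DMSO library 17.5%. It was 18.4 points for regions called in VCaP_DMSO only, where the held-out VCaP_DMSO library called 44.1%. For lists of equal length the margins were 31.1 points for VCaP16 and 24.5 for VCaP_DMSO. Held out one at a time, VCaP16 replicates 1, 2 and 3 gave 22.9, 22.6 and 46.9 points, and VCaP_DMSO replicates 1, 2 and 3 gave 23.1, 18.3 and 14.6. The margin with VCaP_ENZ replicate 2 held out lay within the VCaP_DMSO range, and the differences between these margins were not tested.

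Transient losses were followed in the same way, and their shares too are to be read beside each library's calls over all merged regions, given above. Regions chosen as losses were called in 58.0% of cases in the held-out VCaP_ENZ library, against 71.4% in the held-out VCaP16 library and 66.0% in the held-out VCaP_DMSO library. The VCaP_ENZ share was the lowest in 19 of 27 choices, and in 26 of 27 with lists of equal length, where the shares were 56.6%, 70.0% and 67.2% in the same order of groups. By library, VCaP_ENZ replicates 1, 2 and 3 called 45.5%, 70.8% and 46.9% of the chosen losses. VCaP16 replicates 1, 2 and 3 called 65.7%, 66.0% and 85.9%, and VCaP_DMSO replicates 1, 2 and 3 called 73.5%, 62.2% and 63.5%. VCaP_ENZ replicate 2 thus lay among the libraries of the other groups, while replicates 1 and 3 lay below all of them. Within the choices that held out each replicate, the VCaP_ENZ share minus the mean share of both other groups was -21.1, 0.225 and -20.6 points for replicates 1, 2 and 3. The pooled 58.0% is thus raised by replicate 2, the longest list of its group. Replicate 2 stayed the highest of its group with lists of equal length, where VCaP_ENZ replicates 1, 2 and 3 called 51.3%, 64.1% and 51.7%. The cause was not tested.

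**Figure D3:**
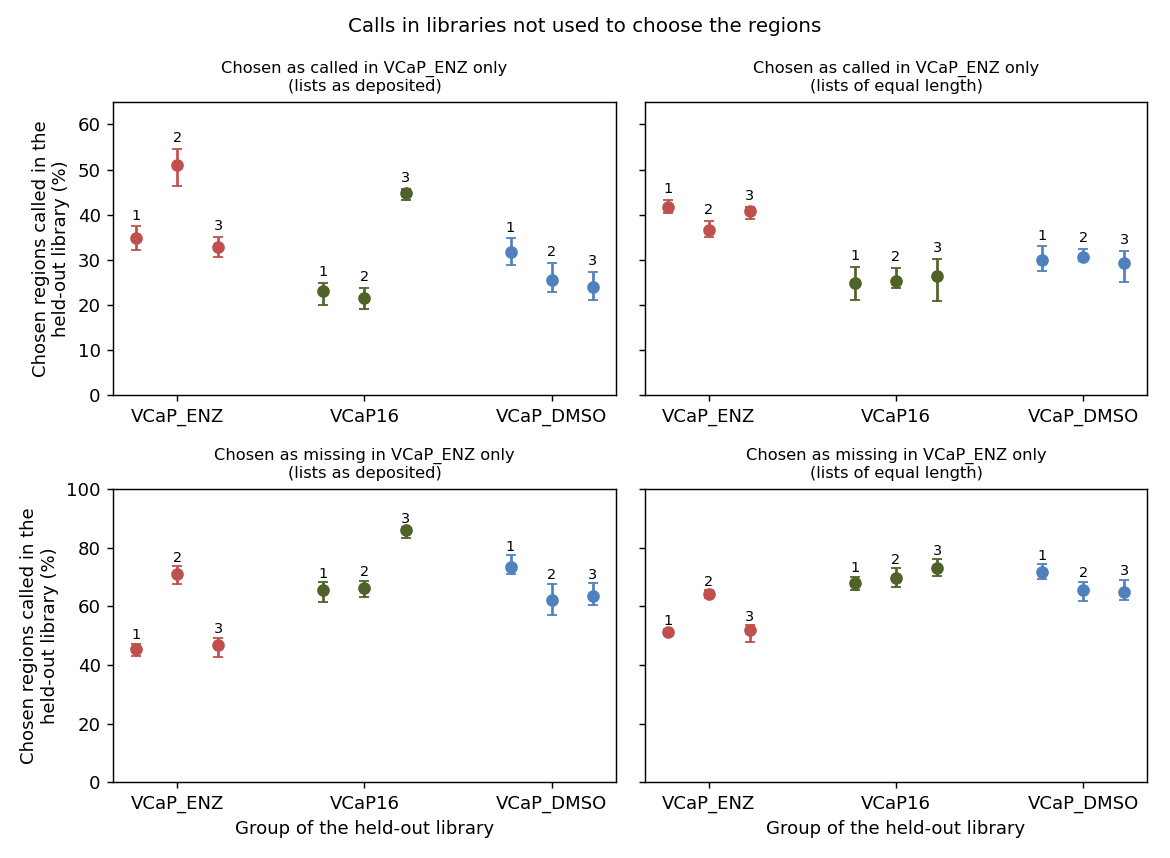
Share of the chosen regions called in a library that took no part in the choice (vertical axis, %), by group and replicate number; points pool the 9 choices with that library held out and bars span their lowest and highest values. With lists of equal length (right) the VCaP_ENZ libraries lie highest for regions chosen as gains, at 36.5% to 41.6%, and lowest for those chosen as losses, at 51.3% to 64.1%. For losses VCaP_ENZ replicate 2, at 64.1%, is close to VCaP_DMSO replicate 3, at 64.8%, and their bars overlap.

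Most members were weak peaks. Peaks were ranked by score within each list, so that 0% is the top and 100% the bottom. Transient gains had a median position of 86.6% (quartiles 79.1% and 92.1%) in the lists that called them and a median score of 4.92. Regions called in VCaP16 only had a median position of 80.3% and those called in VCaP_DMSO only 83.6%, while regions called in all 9 libraries had 30.2%. Only 23 gains (3.24%) had a median score of at least 10, against 288 regions (11.9%) called in VCaP16 only and 81 (10.1%) called in VCaP_DMSO only. In lists of equal length the share was 3.75% for gains, 22.4% for VCaP16 only and 8.54% for VCaP_DMSO only. The 96 gains called in all 3 VCaP_ENZ libraries had a median position of 84.5%, close to the 86.9% of those called in 2, and the regions called in 1 VCaP_ENZ library and nowhere else had 93.0%. In VCaP16 only and VCaP_DMSO only, the regions called in all 3 libraries lay at 71.9% and 73.5%.

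Transient losses were stronger than gains. Their median position was 76.2% (quartiles 65.2% and 85.3%) and their median score 6.74. A median score of at least 10 was reached by 136 losses (18.2%), against 56 regions (9.93%) missing in VCaP16 only and 184 (14.8%) missing in VCaP_DMSO only. The position was 79.3% for losses called in 4 of the 6 other libraries, 74.3% for those called in 5 and 69.1% for those called in all 6, of which 33 (32.7%) had a median score of at least 10. A loss needs calls in at least 4 libraries and a gain in at least 2, so the rule itself selects stronger regions as losses. Regions called in 4 to 6 libraries of any groups had a median position of 76.9% and those called in 2 or 3 libraries of any groups 84.2%. The losses thus lay close to the first of these levels and the gains slightly further down than the second. The classes were not matched to the exact number of calls, and 613 of the 709 gains had only 2.

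**Figure D4:**
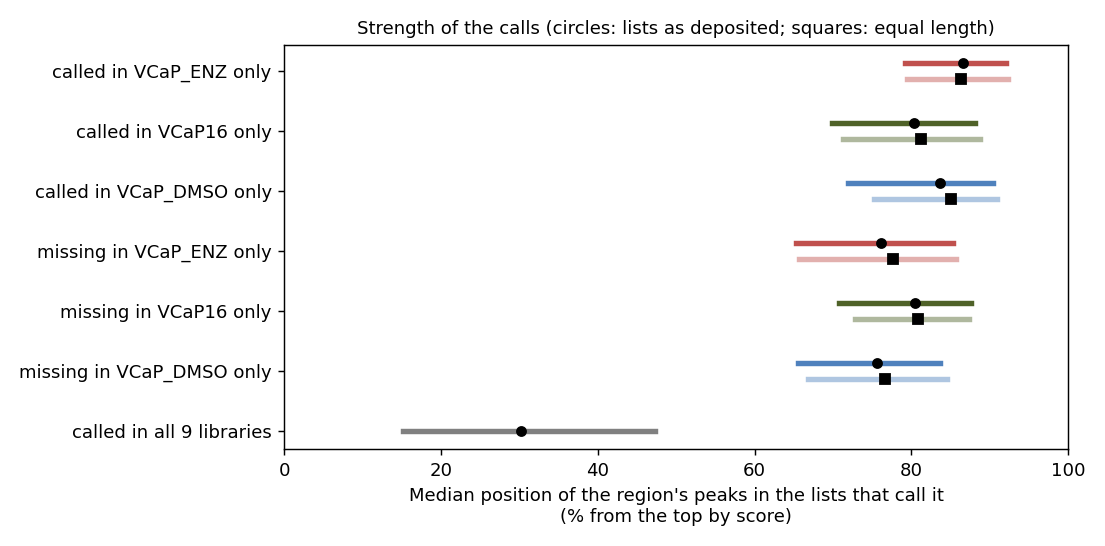
Median position by score (horizontal axis, % from the top of the list) of each class of regions, with bars from the first to the third quartile; circles and dark bars are the deposited lists, squares and pale bars lists of equal length. Transient gains lie lowest in the lists, at 86.6%, and regions called in all 9 libraries at 30.2%.

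The following 10 regions ranked best among the 96 gains called in all 3 VCaP_ENZ libraries. On chromosome 19, 23663977 to 23664220, a region of 244 bp had scores of 12.2, 18.5 and 17.7 in VCaP_ENZ replicates 1, 2 and 3 and no peak in the other 6 libraries. Its nearest region called in all 9 libraries was 43823 bp away. On chromosome 7, 81039820 to 81040334, the VCaP_ENZ scores were 7.87, 17.3 and 14.0, with no region called in all 9 libraries within 50 kb. On chromosome 2, 53670035 to 53670240, they were 13.4, 16.1 and 8.32, and on chromosome 14, 58213781 to 58214071, they were 5.87, 12.8 and 17.7. These 4 were the gains with calls in all 3 VCaP_ENZ libraries and a median score of at least 10, and the lowest library fell under 10 in the last 3 of them.

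The next of these 10 gains were weaker. On chromosome 1, 116253940 to 116254140, the VCaP_ENZ scores were 10.8, 5.65 and 9.48, and this region lay 3125 bp from one called in all 9 libraries. On chromosome 2, 192555574 to 192555968, they were 12.2, 9.60 and 8.32. The remaining 4 lay on chromosome 5 from 41857979 to 41858375, on chromosome 4 from 139315302 to 139315678, on chromosome 16 from 53814063 to 53814421 and on chromosome 13 from 30570430 to 30570762, with median scores of 7.87 to 9.22. Of the 10, 5 had no region called in all 9 libraries within 50 kb on either side, against 27.9% of all transient gains and 26.2% of all merged regions. With only 10 regions this difference was not tested. The median positions of the 10 ran from 36.3% to 67.5%. All 10 kept the pattern under each alternative setting. They were chosen for calls in all 3 VCaP_ENZ libraries and in no other. Leaving out a library or needing calls in all libraries could thus hardly change it. With a score minimum of 5, the share of VCaP_ENZ libraries minus that of the others fell to 0.667 for the regions on chromosomes 5 and 13. At an overlap of 50% it fell to 0.667 for those on chromosomes 7, 5, 4 and 16.

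At the edge of the rule stood regions of similar strength, and the first of them ranked above all 10. Among gains called in only 2 VCaP_ENZ libraries, the best-ranked lay on chromosome 2, 36734452 to 36734784, with scores of 15.9 and 18.5 in replicates 1 and 3 and none in replicate 2, the longest list of the group. The next lay on chromosome 6, 86630423 to 86630812, with 15.1 and 14.3 in replicates 2 and 3, and on chromosome 7, 152038526 to 152038747, with 12.5 and 12.7 in replicates 1 and 3. Just outside the rule, a region on chromosome 7, 106587764 to 106587971, had scores of 11.6, 19.7 and 13.9 in VCaP_ENZ and 22.9 in VCaP16 replicate 3 alone among the others. A region on chromosome 7, 125212756 to 125213514, had 8.92, 19.7 and 12.8 in VCaP_ENZ and a single further call of 4.57, in VCaP_DMSO replicate 2. A region on chromosome 19, 58525880 to 58526352, had 12.1, 20.3 and 12.5 in VCaP_ENZ and 10.0 in VCaP16 replicate 2.

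Among the 101 losses called in all 6 libraries of VCaP16 and VCaP_DMSO, the 10 that ranked best were described; a few losses with fewer calls ranked higher. On chromosome 11, 62630034 to 62630381, the scores were 19.1, 19.2 and 21.3 in VCaP16 and 17.9, 14.1 and 20.1 in VCaP_DMSO, with no VCaP_ENZ peak. There were 5 regions called in all 9 libraries within 50 kb of it. On chromosome 21, 47567253 to 47567607, they were 12.1, 15.6 and 21.4 in VCaP16 and 21.9, 18.5 and 18.5 in VCaP_DMSO. On chromosome 1, 29839898 to 29840248, a region 241261 bp from the nearest one called in all 9 libraries had 14.7, 13.2 and 19.9 in VCaP16 and 16.6, 24.1 and 16.9 in VCaP_DMSO. In these 3 regions the ranges of VCaP16 and VCaP_DMSO scores overlapped.

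Other losses were uneven. The first by rank among those with all 6 calls, on chromosome 8 from 104992016 to 104992564, had 8.71, 7.06 and 18.6 in VCaP16 and 31.6, 29.1 and 28.2 in VCaP_DMSO, so that all VCaP16 scores were below all VCaP_DMSO scores. On chromosome 11, 32830831 to 32831219, the scores were 14.5, 18.8 and 41.8 in VCaP16 and 22.6, 12.7 and 12.0 in VCaP_DMSO, the highest being that of the longest list. On chromosome 11, 77939512 to 77939829, they were 8.85, 17.7 and 23.6 in VCaP16 and 18.1, 6.69 and 16.2 in VCaP_DMSO. The remaining regions lay on chromosome 7 from 155531075 to 155531666, on chromosome 11 from 88831043 to 88831572, on chromosome 19 from 18374330 to 18376800 and on chromosome 5 from 170050527 to 170051001, with median scores of 15.0 to 16.7 over the 6 libraries. The region on chromosome 11 from 88831043 to 88831572 lost the pattern when a peak had to cover 50% of the region, and the other 9 kept it under each setting. Some of these 9 lost calls at that overlap. Leaving out a library could hardly change a pattern chosen for calls in all 6 libraries.

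**Figure D5:**
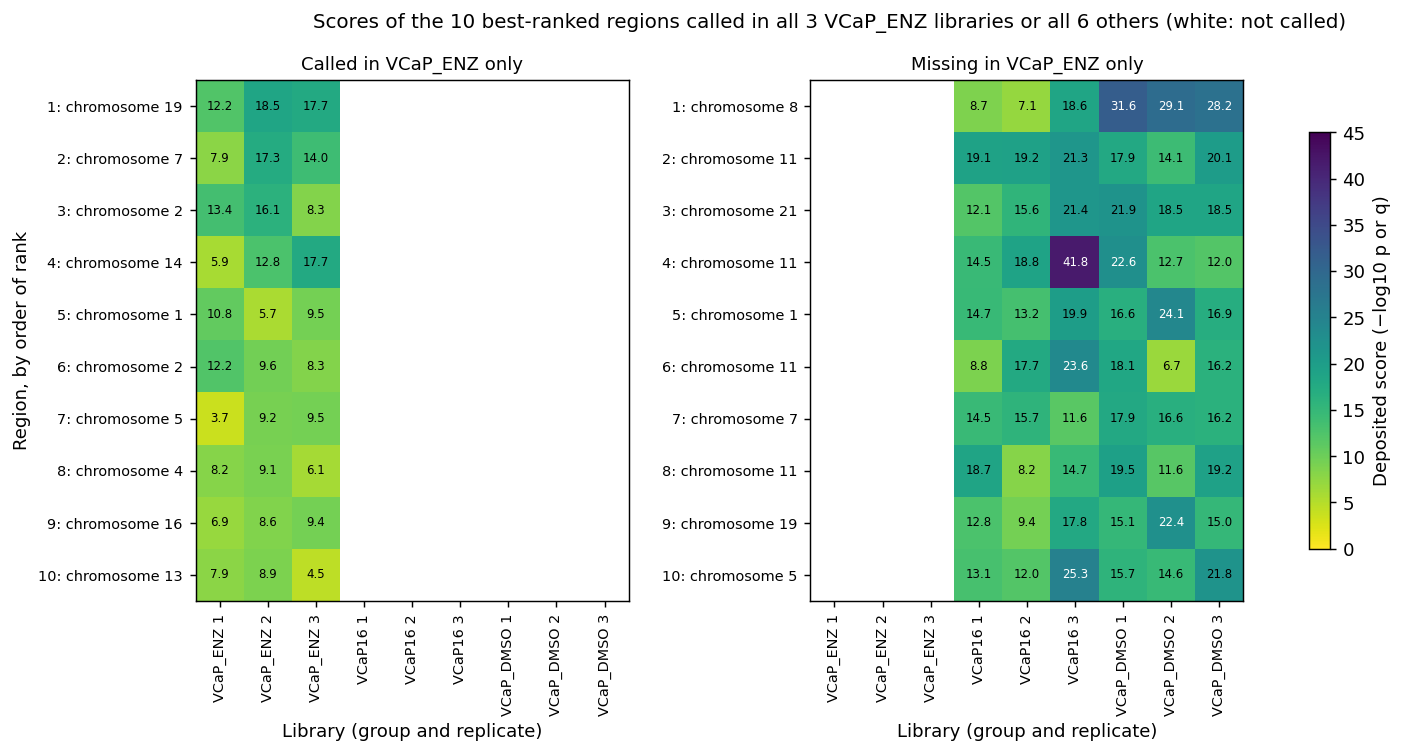
Deposited scores (colour and printed values) of the 10 transient gains called in all 3 VCaP_ENZ libraries (left) and the 10 losses called in all 6 others (right) that ranked best, 1 row per region and 1 column per library; white means that no peak was called. Gains run from 3.66 to 18.5 in the VCaP_ENZ libraries, and losses from 6.69 to 41.8 in the 6 other libraries.

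Strength and width of the losses were compared between VCaP16 and VCaP_DMSO, which the rule treats alike. Peaks in transient losses had a median position of 74.8%, 75.3% and 69.8% in VCaP16 replicates 1, 2 and 3, against 77.0%, 77.8% and 77.8% in VCaP_DMSO. The groups did not overlap, and the means were 73.3% ± 3.05 in VCaP16 and 77.5% ± 0.473 in VCaP_DMSO (SD, n = 3 each). The difference of -4.23 points gave p = 0.1 in a two-sided exact permutation test, where 20 splits can go no lower, and 0.4 after Benjamini-Hochberg adjustment over 4 tests. It turned to 1.20 with lists of equal length (exact permutation p = 0.4). The position of all regions called in 4 to 6 libraries moved with it, at 74.6%, 75.6% and 69.8% in VCaP16 and 77.5%, 78.0% and 79.2% in VCaP_DMSO. Median peak widths in losses were 270, 268 and 296.5 bp in VCaP16 and 280.5, 249 and 247 bp in VCaP_DMSO, a difference of 19.3 bp (exact permutation p = 0.3, adjusted 0.6). Neither difference passed the threshold of 0.05, which 3 libraries against 3 cannot reach.

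Peaks beside the members were not used by the rule and were compared next. The share of transient gains with another peak of the same library within 5 kb was 24.3%, 27.9% and 23.7% in VCaP_ENZ replicates 1, 2 and 3. It was 24.7%, 26.1% and 30.5% in VCaP16 and 26.8%, 26.5% and 24.5% in VCaP_DMSO. The mean was 25.3% ± 2.30 in VCaP_ENZ (SD, n = 3) and 26.5% ± 2.15 in the 6 other libraries, a difference of -1.22 points with a two-sided exact permutation p of 0.524 over 84 splits and 0.698 after adjustment. For transient losses the mean was 24.6% ± 2.44 in VCaP_ENZ and 25.2% ± 1.92 in the 6 other libraries (SD, n = 3 and 6), a difference of -0.580 points (exact permutation p = 0.738, adjusted 0.738). Over all merged regions the shares ran from 19.8% to 23.4% in VCaP_ENZ and from 20.3% to 25.0% in the others. No difference in the neighbouring peaks was detectable with short exposure beyond the spread of libraries, on the side of either gains or losses.

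In width the members were close to other regions with a like number of calls. More of them had a close neighbour, as had regions called in VCaP_DMSO only and those missing in VCaP16 only. The median width of transient gains was 338 bp, against 356 bp for VCaP16 only, 331 bp for VCaP_DMSO only and 354 bp for regions called in 2 or 3 libraries of any groups. Transient losses had a median width of 465 bp, against 482 bp for regions missing in VCaP16 only, 485.5 bp for those missing in VCaP_DMSO only and 483 bp for regions called in 4 to 6 libraries. The nearest region called in all 9 libraries was at a median of 22778 bp from gains and 20322 bp from losses, against 21991 bp over all merged regions. Another merged region lay within 1 kb of 15.1% of gains and 13.3% of losses. That share was 8.64% for regions called in VCaP16 only and 16.5% for those called in VCaP_DMSO only. It was 16.7% for regions missing in VCaP16 only and 8.03% for those missing in VCaP_DMSO only. Regions called in 2 or 3 libraries of any groups had 12.7%, those called in 4 to 6 had 11.8% and all merged regions 12.0%. Within 5 kb the share was 43.3% for gains, against 37.2% for regions called in 2 or 3 libraries, 46.6% for VCaP_DMSO only and 31.3% for VCaP16 only. For losses it was 39.0%, against 36.5% for regions called in 4 to 6 libraries. Regions missing in VCaP16 only had 44.3% and those missing in VCaP_DMSO only 29.1%. These shares were not tested.

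The members were scattered. The median gap to the next transient gain was 1.25 Mb, and 50 of the 709 gains (7.05%) had another within 100 kb. Of the 747 losses, 53 (7.10%) had another loss within 100 kb. The share was 7.11% for regions called in VCaP_DMSO only and 18.5% for those called in VCaP16 only. It was 4.61% for regions missing in VCaP16 only and 10.0% for those missing in VCaP_DMSO only. The share rose with the number of regions in a class, so this spacing was not particular to the members. Of the gains, 41 had a loss within 100 kb and 7 within 10 kb, against 50 and 4 with another gain within these distances. Stretches of 3 members with gaps of at most 100 kb numbered 2 for gains, on chromosome 1 from 61446755 to 61618718 and on chromosome 12 from 95183394 to 95315488, each made of regions with 2 calls. For losses there was 1, on chromosome 3 from 57181080 to 57231175. Regions called in VCaP16 only, 2419 in number, formed 25 such stretches and those called in VCaP_DMSO only 1.

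Gains were unevenly spread over chromosomes in places. They made up 1.13% of the merged regions on chromosome 12, 1.11% on chromosome 21 and 1.06% on chromosome 5, and 0.338% on chromosome 19, where 11 of 3250 regions were gains. Chromosome 19 held 1.55% of the transient gains but 3.88% of the transient losses, and 2.87% of all regions not called in all 9 libraries. It held 2.52% of the regions called in VCaP16 only and 2.12% of those called in VCaP_DMSO only. Its share was 1.42% of the regions missing in VCaP16 only and 1.52% of those missing in VCaP_DMSO only, so a low share was not particular to the gains. Losses made up 0.594% of the merged regions on chromosome 15, the lowest share, and 1.15% on chromosome 20, the highest. The chromosome shares were not tested, since regions of a chromosome are not independent and counts per chromosome were small.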

How the data were processed

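Peak lists of 9 ATAC-seq libraries, 3 per group, were used. Per the labels' protocols, cells were crosslinked with 1% formaldehyde and tagged with Tn5; the same text also describes a single-cell preparation. Of tools, MACS2 2.2.7.1, HOMER 3.12 and BWA 0.7.15-r1140 are listed per the submitters' processing notes, with hg19 as the build and no roles; read filters and any Tn5 shift are not given in the sources used here. Deposited peak scores were read as −log10 p-values or −log10 q-values, and the authors' files do not state which; none was below 2. Each library had its own list, with no pooling and no read counts, so depth is unknown and no counting interval could be given.

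Peaks on chromosomes 1 to 22 and X were merged at an overlap of at least 1 bp; chromosomes Y and M were left out. The members and lists were chosen with earlier results of these data known. The named regions were the 10 best-ranked by median score position among gains called in all 3 VCaP_ENZ libraries and among losses called in all 6 others. For the edge of the rule, the 3 best-ranked regions on each side were named, and all stretches of at least 3 members with gaps of at most 100 kb. Two-sided exact permutation tests over libraries set groups against each other, with p-values adjusted over 4 tests by the Benjamini-Hochberg method at a threshold of 0.05. Alternatives were a score minimum of 5, lists cut to the 53646 best-scored peaks, 250 bp windows about peak midpoints, an overlap of 50%, merging of peaks up to 100 bp apart, calls in all libraries, flanks of 1 or 20 kb, each library left out and a replicate block. Scripts were checked on made-up peak lists and ran in Python 3.11.15 with NumPy 2.4.6, pandas 2.3.3, SciPy 1.17.1 and Matplotlib 3.10.9.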

Additional observations from a re-analysis of the deposited data

How the results depend on the processing

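The counts stayed within 1.5 times with a score minimum of 5, windows about peak midpoints, an overlap of 50% and merging over 100 bp, but which regions met the rule moved more: 203 of the 709 gains and 313 of the 747 losses kept the pattern with the score minimum. Lists of equal length gave 1469 regions called in VCaP16 only and 993 missing in it only, and 450 of the 709 gains and 498 of the 747 losses kept the pattern. Requiring calls in every library gave, as called only and missing only, 96 and 101 for VCaP_ENZ, 520 and 83 for VCaP16 and 152 and 214 for VCaP_DMSO. Without single libraries the counts ran, for VCaP_ENZ, from 224 to 1162 called only and 334 to 2153 missing only; for VCaP16 from 801 to 3190 and 227 to 1605; and for VCaP_DMSO from 333 to 1235 and 530 to 2494: the group that lost a library then needs calls in 2 of 2 where called and absence from 2 where missing.

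With VCaP_ENZ replicate 2 held out by itself, the margin was 21.4 points for gains and 0.225 for losses, where the sign turned; the cause was not tested. The flank difference for gains turned to 0.094 points with flanks of 1 kb (exact permutation p = 0.881) and 0.423 with 20 kb (p = 0.905, same test). For losses it turned to 0.234 with lists of equal length (exact permutation p = 0.69) and ran from -1.99 to 0.223 without single libraries, above 0 without VCaP_ENZ replicate 1 or 3 or VCaP16 replicate 3. The position of losses turned to 1.20 with lists of equal length. The cause of these turns was not tested.

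In what set each library apart within its group, same-numbered libraries of different groups correlated at -0.00478 to 0.0102, and libraries with different numbers at -0.0131 to 0.0069. These are not correlations of the calls themselves, since 33033 of the 94773 regions were called in all 9 libraries. The ranges of the correlations overlapped, which cannot tell whether same-numbered libraries shared a culture or batch. With a replicate block, which keeps the differences and permutes within numbers, the exact permutation p was 0.667 for the flank of gains (-1.22 points), 0.778 for the flank of losses (-0.58), 0.25 for the position of losses (-4.23) and 0.5 for their width (19.3 bp). Unknown depth limits all calls.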
